A study of Mus musculus with 3 samples.

Results

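Around the small leucine-rich proteoglycan (SLRP) gene clusters of the mouse, the LMX1B ChIP-seq lists held 7 intervals, 2 of 1287 in the first ChIP and 5 of 4501 in the validation ChIP. The clusters are Dcn-Lum-Kera-Epyc on chromosome 10, Aspn-Omd-Ogn on chromosome 13 and the pair Prelp and Fmod on chromosome 1, with 9 member genes in all. An interval belonged to a cluster when its midpoint lay within 300 kb of the body of a member gene, and was counted once per cluster and list. Both ChIP samples were made from C57BL/6 limb buds of embryonic day 12.5 with the same polyclonal antibody against LMX1B. The sample title of the validation ChIP adds the words BMO8 validation, which that of the first ChIP lacks. The track name of the first ChIP calls its limb buds wild-type (WT), and that of the validation ChIP names no genotype. Fore- and hindlimbs were pooled (2 runs of 48 limb buds each), and the labels name no separation of dorsal from ventral tissue. Each ChIP is 1 sample, so no value below has a replicate or a test, and the counts describe these lists. The input DNA, which the labels describe as chromatin of WT and mutant limbs combined, had no list and was not analysed here.

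SLRPs are secreted proteins built from leucine-rich repeats, and many carry chondroitin, dermatan or keratan sulfate chains. They bind collagen and set how thick and how evenly spaced its fibrils become in tendon, dermis, cornea and cartilage. Many of their genes sit in clusters that combine members of different classes: Dcn and Aspn are class I, Lum, Kera, Omd, Fmod and Prelp class II, Epyc and Ogn class III. LMX1B is a LIM homeodomain transcription factor of the dorsal limb mesenchyme, and homeodomains commonly read short AT-rich cores such as TAATTA.

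The promoter sequences of 7 of the 9 members were found in the RefSeq table of assembly GRCm38.p6 (the assembly of mm10), Dcn and Lum being the others. The promoters of Epyc, Aspn and Fmod are shown, 1 for each cluster, to let the short homeodomain core be seen in its surrounding sequence. Each is the 250 bases before the annotated start, 5′ to 3′ on the gene's strand, with every ATTA or TAAT in capitals (3 matches for Epyc, 6 for Aspn, some overlapping, and 1 for Fmod). The last, from Zc3h11a, which encodes a zinc finger protein linked to mRNA export, is no member. It is shown because it holds the only bases of a listed interval near the clusters for which sequence was at hand, the 36 bases in capitals (chr1:133661614-133661649). Their regions are chr10:97643818-97644067 (plus strand), chr13:49544193-49544442 (plus), chr1:134037004-134037253 (plus) and chr1:133661400-133661649 (minus).
Epyc: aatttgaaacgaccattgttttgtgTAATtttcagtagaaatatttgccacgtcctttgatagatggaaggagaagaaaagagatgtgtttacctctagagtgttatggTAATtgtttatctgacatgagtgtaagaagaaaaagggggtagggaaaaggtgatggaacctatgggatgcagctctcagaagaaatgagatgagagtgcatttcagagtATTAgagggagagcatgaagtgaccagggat
Aspn: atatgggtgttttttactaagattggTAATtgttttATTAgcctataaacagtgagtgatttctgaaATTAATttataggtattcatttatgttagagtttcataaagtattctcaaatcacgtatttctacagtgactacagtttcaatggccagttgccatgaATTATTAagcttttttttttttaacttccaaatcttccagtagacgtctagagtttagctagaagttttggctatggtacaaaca
Fmod: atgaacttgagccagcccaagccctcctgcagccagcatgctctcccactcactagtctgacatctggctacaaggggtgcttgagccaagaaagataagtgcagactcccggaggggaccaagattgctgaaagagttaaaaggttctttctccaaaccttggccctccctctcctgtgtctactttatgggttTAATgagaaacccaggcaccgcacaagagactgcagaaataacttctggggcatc
Zc3h11a: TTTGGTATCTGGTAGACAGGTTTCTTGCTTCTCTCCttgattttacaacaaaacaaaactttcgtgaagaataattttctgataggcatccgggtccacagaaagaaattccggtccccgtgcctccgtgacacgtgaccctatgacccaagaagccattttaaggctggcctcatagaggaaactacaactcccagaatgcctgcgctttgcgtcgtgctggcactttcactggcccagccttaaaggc

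The Dcn-Lum-Kera-Epyc cluster held the only site listed in both ChIPs. Whether the ChIPs came from separate chromatin preparations is not stated, so the lists cannot be taken as independent. The first ChIP placed an interval at chromosome 10, 97536797 to 97537322 (526 bp), with a summit score of 18. The validation ChIP placed one at 97536850 to 97537366 (517 bp) with a score of 14. The pair overlapped by 473 bp, which was 89.9% of the first interval and 91.5% of the other, and the summits lay 80 bp apart. Both lay outside protein-coding gene bodies, in the 47.3 kb between Dcn and Lum, at 39.9% of the way from Dcn. Dcn encodes decorin, which binds type I collagen and TGF-beta, and Lum encodes lumican, the keratan sulfate proteoglycan of the corneal stroma.

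The interval of the first ChIP scored below, and that of the validation ChIP above, the median of its list. The score is a whole number per summit, given by the authors without a unit, and can be ranked only within its own list. The first-ChIP score of 18 was below the list's median of 20, with 307 of 1287 intervals (23.9%) lower and 148 at the same value. It was also below the median of 22 over the 707 first-ChIP intervals that overlap a validation interval by at least 1 bp, called shared here. The validation score of 14 was above its list's median of 11, with 73.8% of the list lower, but below the median of 16 for shared validation intervals. Of all first-ChIP intervals 54.9% were shared, and of all validation intervals 15.6%. Around the clusters this was 1 of 2 and 1 of 5. At first-ChIP scores of 16 to 18, which cover both intervals there, 36.4% of 376 were shared. The first-ChIP interval between Dcn and Lum was wider than 77.5% of its list. The validation interval there, of 517 bp, was wider than only 35.9% of its list, whose median width was 571 bp. The first-ChIP interval there was also among the 735 of 1287 first-ChIP intervals that make up a further deposited track named Active Regions. Most of the first list is therefore in that track. The other first-ChIP interval around the clusters was not, and the track holds no entries taken from the validation list.

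**Figure D1:**
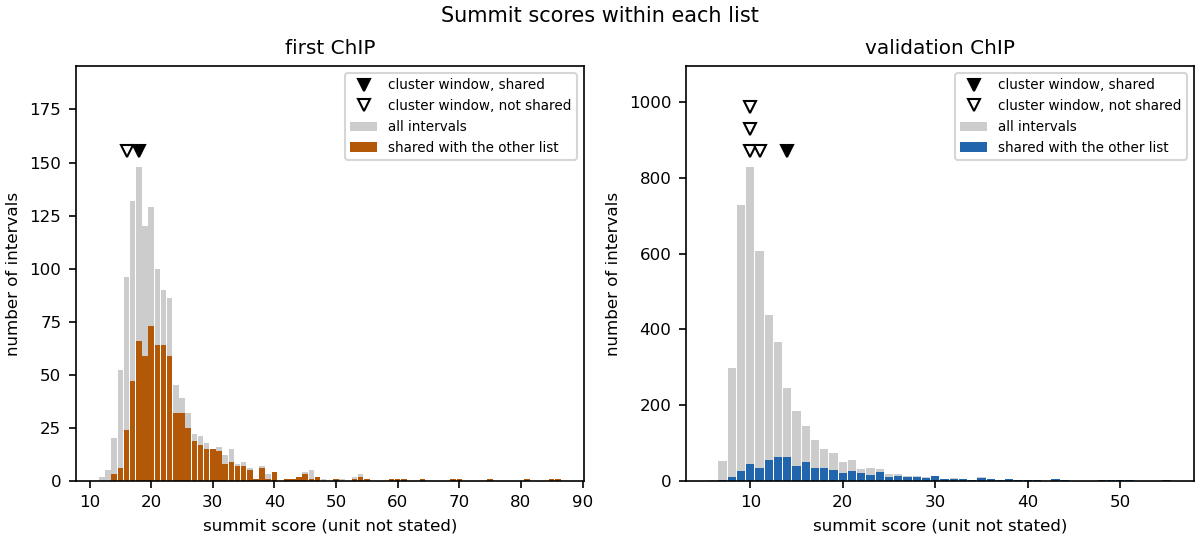
Number of intervals (y axis) at each summit score (x axis, unit not stated) in the first ChIP (left) and the validation ChIP (right), with shared intervals coloured and triangles for those around the clusters. The first-ChIP triangles stand at 16 and 18, below the median of 20, and the validation triangles at 10, 10, 10, 11 and 14, around the median of 11.

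The site lay nearer to Dcn than to any other protein-coding gene. The midpoint of the first-ChIP interval was 18.9 kb from the body of Dcn, 28.4 kb from Lum, 69.9 kb from Kera and 107 kb from Epyc. Kera encodes keratocan, a corneal and tendon keratan sulfate proteoglycan, and Epyc encodes epiphycan, found in growth cartilage. Of 21779 protein-coding genes, 1.98% had a shared interval as near as Dcn, 2.38% as near as Lum, 3.79% as near as Kera and 5.05% as near as Epyc. These 4 percentages rest on 1 interval and are not independent of each other. Across the genome, 431 shared first-ChIP intervals lay outside protein-coding gene bodies, at a median of 120 kb from the nearest one, and 92 of them (21.3%) were as near to a gene as the one between Dcn and Lum.

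Lum also carried an interval in its gene body, in the validation list only. It ran from 97565556 to 97566164 (609 bp), from 55 bp to 663 bp inside the lower-coordinate end of the gene (97565501 to 97572703), with its summit 334 bp inside. The interval covered 8.45% of the Lum body and lay 28.8 kb from the site between Dcn and Lum. Its score was 10, with 24% of the validation list lower. Lum was the 1 member of 9 with a validation midpoint in its body, against 5.46% of all protein-coding genes, and no member had a first-ChIP midpoint there, against 2.42%. Which end of Lum is transcribed first, and whether the bases are exonic or intronic, was not analysed here. At scores of 10 or 11 in the validation list, 77 of 1436 intervals (5.36%) were shared.

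A further validation interval lay on the other side of Dcn, at 97313060 to 97314019 (960 bp, score 10), outside protein-coding gene bodies and 166 kb from Dcn. It was wider than 93.8% of the validation list. The window held 5 protein-coding genes, the 4 members and Ccer1, and gene bodies covered 11.5% of it. Beyond the window, a pair with higher scores stood 432 kb from Dcn, at 97047548 to 97048042 in the first ChIP (score 26) and 97047176 to 97048223 in the validation ChIP (score 28). Another stood 862 kb from Epyc, at 98543260 to 98543767 (score 29) and 98543074 to 98543990 (score 27). Both pairs therefore had higher scores in both lists than the site between Dcn and Lum, and neither fell under the 300 kb rule.

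**Figure D2:**
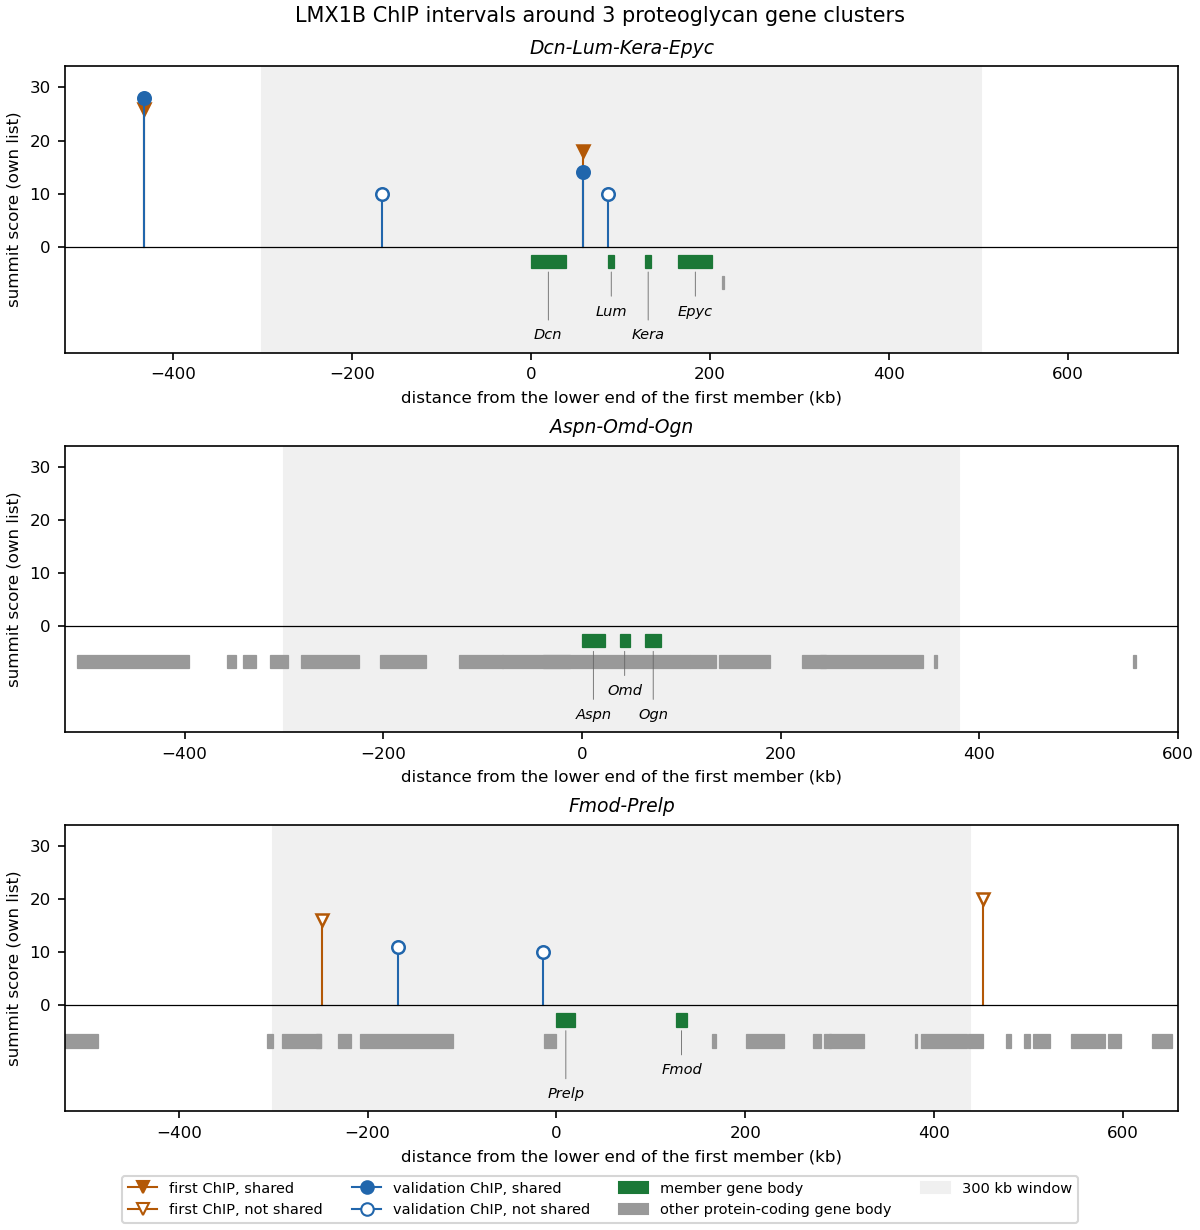
Intervals around each cluster by distance from the lower end of its first member (x axis, kb), with the height of each marker its summit score in its own list (y axis), triangles for the first ChIP and circles for the validation ChIP, filled where shared. Green boxes are members and grey boxes other protein-coding genes; within the shaded 300 kb windows the filled pair stands only between Dcn and Lum, and the Aspn-Omd-Ogn panel is empty.

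No interval of either list lay around Aspn, Omd and Ogn. Aspn encodes asporin, a relative of decorin in cartilage and periodontal ligament, Omd encodes osteomodulin of mineralised tissue, and Ogn encodes osteoglycin. The cluster spans 80.1 kb on chromosome 13 (49544443 to 49624501), and all 3 genes lie inside the body of Cenpp, a centromere protein gene on the other strand. Its window held 14 protein-coding genes, whose bodies covered 79.8% of it. The nearest validation interval was at 48950883 to 48951497 with a score of 10, which put it 593 kb from Aspn, 631 kb from Omd and 657 kb from Ogn. The nearest first-ChIP interval, also shared, was at 48528644 to 48529070 with a score of 22, at 1016, 1054 and 1079 kb in the same order. An empty surrounding was common: 42.5% of protein-coding genes had no interval of either list within 300 kb. These lists show no site there above the authors' calling limit, which is not given in the sources used here, and do not show that LMX1B is absent.

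Around Prelp and Fmod the lists held 3 intervals, and none was shared. Prelp encodes a heparin-binding SLRP of basement membranes and cartilage, and Fmod encodes fibromodulin, which binds collagen in tendon and cartilage. The bodies lie 107 kb apart (133910304 to 133930102 and 134037254 to 134048280), with annotated starts at 133921401 on the minus and 134037254 on the plus strand. The nearest was a validation interval at 133896137 to 133896753 (617 bp, score 10), 13.9 kb from Prelp and 141 kb from Fmod. It was nearer still to Optc, which encodes the SLRP opticin: it lay 0.748 kb beyond the end of Optc that is opposite to the annotated start, and 11.6 kb from that start. A second validation interval lay in the body of Atp2b4, a plasma membrane calcium pump gene, at 133742137 to 133742699 (563 bp, score 11), 11.3 kb from its annotated start.

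The first-ChIP interval of this cluster stood at another gene's promoter. It ran from 133661614 to 133661904 (291 bp) with a score of 16, below which lay 6.14% of the list, and its midpoint was 0.36 kb upstream of the start of Zc3h11a and 249 kb from Prelp. The 36 bases in capitals above are where it entered the Zc3h11a promoter window. A further unshared first-ChIP interval lay just outside the rule, 314 kb from Fmod, at 134361835 to 134362151 (score 20). The nearest shared interval was 3325 kb from Fmod and 3443 kb from Prelp.

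Counted per gene, 5 of the 9 members had a first-ChIP interval within 300 kb of their body (Dcn, Lum, Kera, Epyc and Prelp), against 27.3% of protein-coding genes. A validation interval was there for 6, the same genes and Fmod, against 51.9%. A shared interval was there for 4, against 12.1%, and all 4 owed it to the site between Dcn and Lum. With 100 kb in place of 300 kb a shared interval was there for 3 members (Dcn, Lum and Kera), against 4.83% of protein-coding genes, and with 500 kb for the same 4, against 18.8%. Since neighbouring members share intervals, the 9 genes are not independent in any of these counts or in the distances that follow. The first-ChIP count rests on 2 intervals and the validation count on 5, and the shared count is in effect 1 cluster of 3. The nearest validation interval lay at a median of 78.2 kb from the members, from 0 kb for Lum to 657 kb for Ogn, against a median of 281 kb over protein-coding genes. Over the 2.22 Mb of the windows, the validation list held 2.25 intervals per Mb, against 1.75 over autosomes and chromosome X, and the first list 0.901 against 0.501. These densities rest on 5 and 2 intervals.

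**Figure D3:**
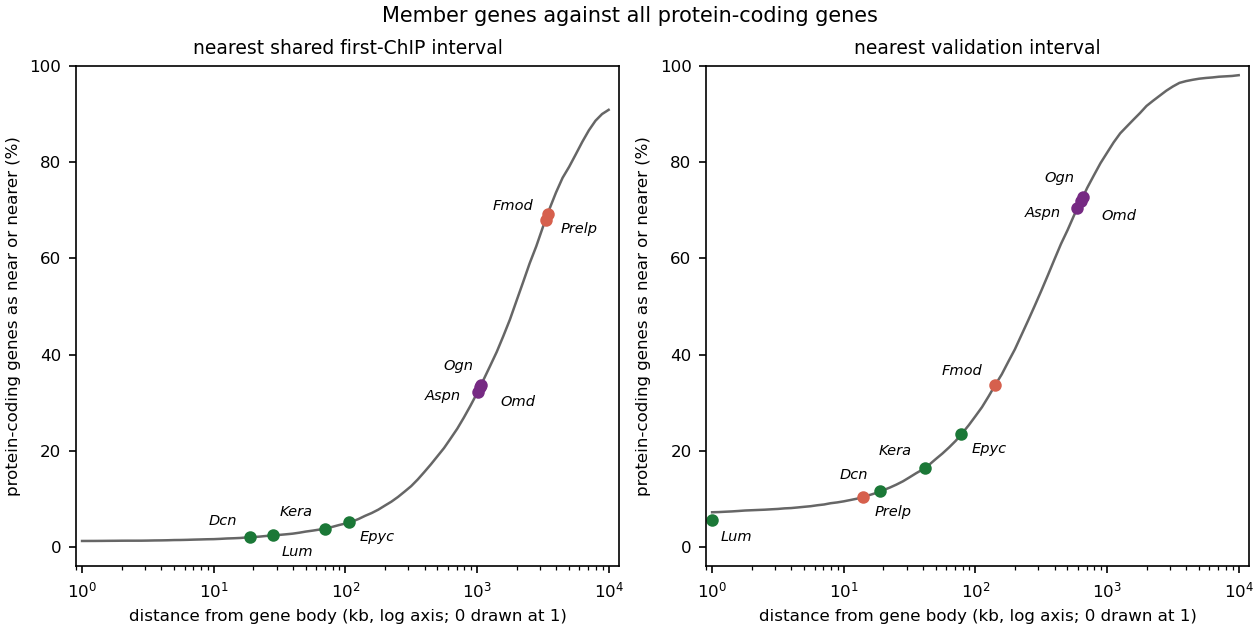
Percentage of protein-coding genes with an interval as near or nearer (y axis) by distance of the nearest shared first-ChIP interval (left) or validation interval (right) from the gene body (x axis, kb, log axis, with 0 drawn at 1), as a grey line for all genes and points for members (green, chromosome 10; purple, chromosome 13; red, chromosome 1). On the left, Dcn, Lum, Kera and Epyc stand between 1.98% and 5.05%, and Aspn, Omd and Ogn between 32.3% and 33.7%. Fmod and Prelp stand there at 68% and 69.2%. On the right, Dcn, Lum, Kera and Epyc stand between 5.46% and 23.4%, and Aspn, Omd and Ogn between 70.4% and 72.8%. Fmod and Prelp stand there at 33.6% and 10.3%.

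The other SLRP genes and genes of collagen fibrils were set beside the members. Of 8 other SLRP genes (Bgn, Optc, Chad, Nyx, Tsku, Podn, Podnl1 and the related Ecm2), none had a shared interval within 300 kb, against 12.1% of protein-coding genes. Only Optc had a first-ChIP interval there, the one at Zc3h11a, and 5 (62.5%) had a validation interval (Optc, Chad, Nyx, Podn and Podnl1), against 51.9%. Optc lies in the window of Prelp and Fmod, and Ecm2 in that of Aspn, Omd and Ogn. Neither is therefore a locus apart from the member clusters. Bgn, which encodes biglycan and is the closest relative of Dcn, lies on chromosome X and had no validation interval nearer than 3168 kb. Elsewhere on that chromosome, the nearest validation interval was 213 kb from Nyx and 18454 kb from Tnmd, a gene of the fibril list that follows. The nearest first-ChIP interval was 11465 kb from Bgn, 71468 kb from Nyx and 32211 kb from Tnmd. The distance of Bgn was not compared with that of other genes on its chromosome. Of 14 genes of fibrillar collagens, fibril-associated collagens and fibril assembly, 3 (21.4%) had a shared interval within 300 kb. These were Col1a2, Col11a2 and Lox, which encodes a collagen cross-linking enzyme, with the nearest at 15.8, 52.5 and 83.2 kb. A first-ChIP interval was there for 4 of the 14 (28.6%, against 27.3% of protein-coding genes) and a validation interval for 8 (57.1%, against 51.9%), both near the share for all genes. The type I collagen that decorin binds is made of the products of Col1a1 and Col1a2. Col1a2 had 9 validation intervals within 300 kb, the most of the 14, and 1 shared first-ChIP interval. Col3a1 and Col5a2 had 4 validation intervals each, Col1a1 had 1, and 6 of the 14 had 0, where Dcn had 3. How such counts are spread over all protein-coding genes was not analysed here.

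None of the 7 members with a promoter sequence had it overlapped by an interval. Dcn and Lum have no annotated start in the table and could not be examined. The windows compared were 300 bases long, from 250 before to 50 after an annotated start, with 8 windows for the 7 members (Kera, Epyc with a pair of starts, Aspn, Omd, Ogn, Fmod and Prelp). Over all 27025 genes in the table, 0.888% had a window overlapped by a first-ChIP interval and 1.6% by a validation interval. With shares this low, finding none among 7 members says little about them.

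The core TAATTA, which reads the same on both strands, was in none of the 8 member windows, and 5.29% of all 32851 windows held it. The shorter ATTA, searched on both strands and contained in TAATTA, was in all 8, and 58% of all windows held it. Aspn had 7 matches, 6 of them in the printed upstream part, and 2.37% of all windows had at least as many. Epyc had 3 at its first start and 6 at its second, Omd 3, Prelp 2, and Kera, Ogn and Fmod 1 each. The windows on chromosomes 10 and 13 were poor in G and C, from 31% in Aspn to 42.3% in Ogn, where the median of all windows was 52.7%. Fmod with 51% and Prelp with 55.3% were near that median. Among the 5136 windows with no more G and C than that of Ogn, 96.1% held ATTA and 16.2% held TAATTA, and all 6 member windows of that composition held ATTA. The dinucleotide CG occurred 1 to 7 times per member window, where the median of all windows was 7. A match is a run of letters and not a binding site.

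**Figure D4:**
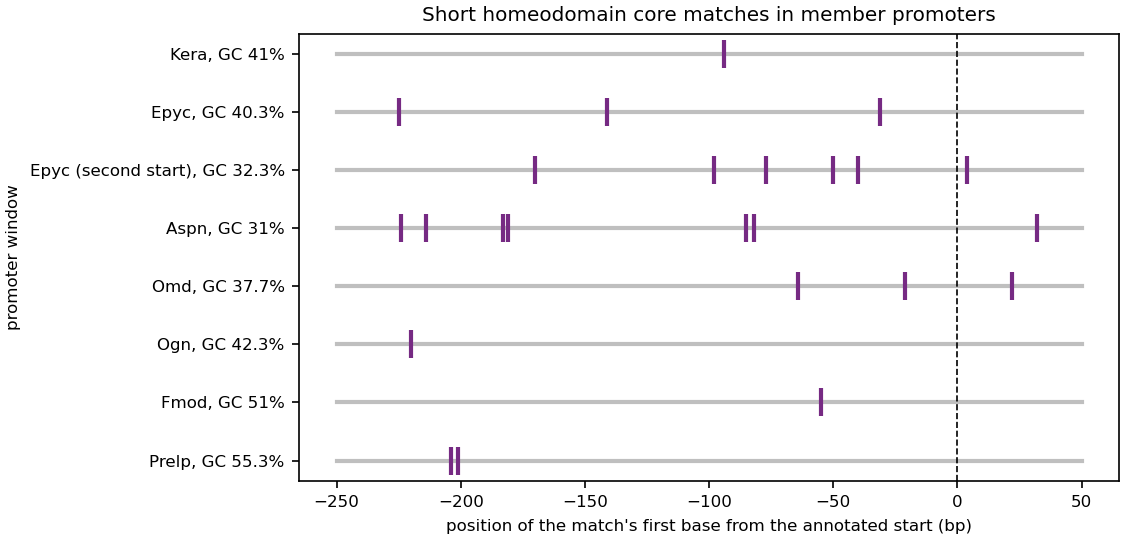
Positions of ATTA or TAAT (bars, first base of the match) from the annotated start (x axis, bp) in the 8 promoter windows of 7 members (y axis, with the GC percentage of each window). Aspn has 7 matches and the second Epyc window 6, and these have the lowest GC, 31% and 32.3%.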

How the data were processed

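Per the labels, frozen limb buds were fixed with 1% formaldehyde for 15 min, chromatin was sheared to 300 to 500 bp, and 30 µg was precipitated with 20 µl of antibody. The submitters' processing notes name BWA and build mm10. No source used here gives the version of BWA, the caller of the intervals or its threshold. The authors deposited, per the file headers, 1 interval list per ChIP and a whole-number summit score per interval, with no unit or normalization. Depth is unknown, since the lists carry no read counts. Scores were ranked only within a list. The validation file repeats all 1287 first-ChIP intervals (1 summit moved); the copy was not counted.

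Coordinates count from 1 on mm10. Gene bodies came from the RefSeq table of GRCm38.p6, without entries starting before 3 Mb on autosomes and X. It has no exons. Intervals were shared with an overlap of at least 1 bp. Alternatives were windows of 100 and 500 kb, overlap of 50% of both intervals, midpoints within 250 bp, any base in the window, intervals at or above the median score, and ATTA for TAATTA. Functions were tested on simulated data (Python 3.11.15, matplotlib 3.10.9).

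All members, the nearest and host genes of each interval and both comparison lists are named; members and lists were chosen with earlier results of these data known. No paired analysis was possible because each group holds 1 sample and no result comes from a test.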

Additional observations from a re-analysis of the deposited data

How the results depend on the processing

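The 7 intervals around the clusters became 4 with a window of 100 kb and 2 when only intervals at or above the median score of their list were kept, both in the validation list; they numbered 10 with a window of 500 kb. The shared first-ChIP interval between Dcn and Lum was kept when 50% of both intervals had to overlap and with midpoints within 250 bp. With intervals at or above the median score the shared count was 0, and so was the count of members with one, because the first-ChIP score of 18 is under the median of 20. A window of 500 kb gave 2 shared intervals, the second 432 kb from Dcn. In the first ChIP alone, the 2 intervals became 1, 4 and 0 with 100 kb, 500 kb and the score limit. Member genes with a promoter core numbered 0 for TAATTA and 7 for ATTA, which is contained in it. Depth is unknown, so an empty surrounding cannot be told apart from a signal under the calling limit.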
